A study of Mus musculus with 6 samples.

Results

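The nuclear-encoded oxidative phosphorylation (OXPHOS) genes encode, with few exceptions, subunits of the respiratory chain and of ATP synthase, and lie on chromosomes of the nucleus. They were chosen by gene symbol: every row whose symbol starts with Ndufa, Ndufb, Ndufc, Ndufs, Ndufv, Uqcr, Atp5, Cox4, Cox5, Cox6, Cox7 or Cox8, together with Sdha, Sdhb, Sdhc, Sdhd, Cyc1 and Cycs, without the Ndufaf assembly factors and Cox6a2. The rule gave 86 of 28692 genes. Of these, 36 were counted with complex I, 4 with complex II, 9 with complex III, 1 as cytochrome c, 19 with complex IV and 17 with complex V. Atp5s and Atp5sl match by name and are counted with complex V, although neither is a subunit of ATP synthase. The data were droplet single-cell counts of unique molecular identifiers (UMIs, each standing for 1 captured mRNA molecule read at its 3' end) from sorted live CD45+ immune cells of the central nervous system of C57BL/6 mice. The tissue label is brain, and the protocol also names spinal cord. Experimental autoimmune encephalomyelitis (EAE), a mouse model of multiple sclerosis in which the central nervous system is inflamed by induced autoimmunity, was followed in wild-type mice (WT) and in miR-155KO mice (KO), which lack the microRNA miR-155, at days 0, 13 and 21 after induction. Whether the mice of day 0 had been immunized is not stated in the sources used here. There was 1 library for each genotype on each day, 6 in all. The design text names 5 mice a group, and how they were combined is not stated in the sources used here. Age and sex of the mice and the allele behind the knockout are likewise not stated there.

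Electrons from NADH enter the chain at complex I and electrons from succinate at complex II, pass through ubiquinone to complex III, and travel on cytochrome c to complex IV, which reduces oxygen. Protons pumped on the way drive ATP synthase, complex V. A few core subunits of complexes I, III, IV and V are encoded by mitochondrial DNA, and all other subunits, including the whole of complex II and cytochrome c, are made from nuclear genes. In macrophages and microglia the balance between this pathway and glycolysis is known to shift with activation, and mature neutrophils are known to depend mainly on glycolysis.

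Transcripts of Mir155hg, the host gene of miR-155, were counted 2, 45 and 59 times in WT at days 0, 13 and 21, and 0, 0 and 1 times in KO. The libraries held between 6321841 and 24243660 UMIs over 20030 barcodes, of which 20007 were kept, and pairs of libraries shared 5 to 32 barcode sequences. Cells were assigned to a class when at least 3 of its 10 marker genes had a UMI and no other class had more than 0.5 times as many markers with one. This placed 15044 cells, and 4963 stayed without a class, from 6.97% of the cells in the KO library of day 0 to 35.0% in the WT library of day 21. A class is reported for a library only if it held 50 or more cells there, so NK-like cells come from 2 WT libraries, plasmacytoid dendritic-like cells from the 2 libraries of day 13 and monocyte/macrophage-like cells from all libraries except the KO library of day 0. In each class at least 9 of its 10 markers were detected in every library used.

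Nuclear OXPHOS genes are known as targets of a small set of broadly expressed transcription factors, and 5 promoters are shown. They were picked because their genes appear in the results that follow and because their windows hold a motif, so they are not typical of the members: 18 of 77 windows held any of the 3 motifs searched. The windows of Cox8a, Ndufb7 and Ndufa3, which also appear in the results, held none of them. The window runs from 250 bases before to 50 bases after the RefSeq transcription start (GRCm38.p6), in lower case, with the motif in capitals. The motif of NRF1 (GCGCATGCG, or CGCATGCGC on the other strand) was found in the first 3, and that of the ETS family to which GABPA belongs (CCGGAAGTG, or CACTTCCGG on the other strand) in the last 2. In Atp5g2 and Atp5k the NRF1 motif matched on both strands with an overlap, so that 10 capitals appear.
Cycs (chr6:50566520-50566819, minus strand): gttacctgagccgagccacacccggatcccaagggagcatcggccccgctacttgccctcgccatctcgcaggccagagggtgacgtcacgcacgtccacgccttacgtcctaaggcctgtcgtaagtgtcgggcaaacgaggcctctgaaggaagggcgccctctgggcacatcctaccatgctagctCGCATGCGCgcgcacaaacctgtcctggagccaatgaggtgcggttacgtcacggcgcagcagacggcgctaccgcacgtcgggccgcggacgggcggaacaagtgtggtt
Atp5g2 (chr15:102670998-102671297, minus strand): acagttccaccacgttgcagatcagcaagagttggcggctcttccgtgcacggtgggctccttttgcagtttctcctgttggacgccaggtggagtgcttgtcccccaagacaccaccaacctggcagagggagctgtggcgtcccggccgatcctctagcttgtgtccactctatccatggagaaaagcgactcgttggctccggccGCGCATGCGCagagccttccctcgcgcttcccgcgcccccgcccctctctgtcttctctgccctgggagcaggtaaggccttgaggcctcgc
Atp5k (chr5:108434350-108434649, minus strand): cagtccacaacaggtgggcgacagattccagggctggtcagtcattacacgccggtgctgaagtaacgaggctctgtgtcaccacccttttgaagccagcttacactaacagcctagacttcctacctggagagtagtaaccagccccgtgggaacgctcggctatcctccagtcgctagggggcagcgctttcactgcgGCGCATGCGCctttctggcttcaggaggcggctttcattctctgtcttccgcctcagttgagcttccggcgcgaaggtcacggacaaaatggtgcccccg
Uqcrh (chr4:116075021-116075320, minus strand): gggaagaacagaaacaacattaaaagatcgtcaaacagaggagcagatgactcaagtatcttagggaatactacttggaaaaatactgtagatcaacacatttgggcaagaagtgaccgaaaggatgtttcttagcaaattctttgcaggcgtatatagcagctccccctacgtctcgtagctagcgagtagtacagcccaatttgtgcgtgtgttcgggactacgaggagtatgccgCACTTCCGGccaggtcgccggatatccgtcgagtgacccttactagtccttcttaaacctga
Ndufs3 (chr2:90904672-90904971, minus strand): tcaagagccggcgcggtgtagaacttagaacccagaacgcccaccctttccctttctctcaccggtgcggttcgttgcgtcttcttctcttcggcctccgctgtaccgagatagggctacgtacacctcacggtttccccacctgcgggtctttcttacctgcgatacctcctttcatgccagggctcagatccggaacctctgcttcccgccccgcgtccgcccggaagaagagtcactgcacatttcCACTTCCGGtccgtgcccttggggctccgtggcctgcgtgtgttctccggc
Cycs encodes cytochrome c, Atp5g2 is 1 of 3 genes for the same c subunit of the ATP synthase rotor, Atp5k encodes the small e subunit of ATP synthase, Uqcrh is the acidic hinge protein of complex III, and Ndufs3 is a core subunit of the arm of complex I in the matrix. The promoter table held 72 of the 86 genes, 5 of them with 2 starts, in 77 windows. The NRF1 motif was in 9 of the 77 windows (11.7%) against 1.75% of all 32851 windows. The YY1 motif (AAGATGGCG, or CGCCATCTT on the other strand) was in 7 (9.09%) against 1.40%, and the ETS motif was in 2 (2.60%) against 2.03%. No window of a member held more than 1 of these 3 motifs, and a match describes letters, not binding.

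Monocyte/macrophage-like cells had the highest share, from 2.47% to 2.74% of UMIs over 5 libraries. NK-like cells followed at 2.41% and 2.42%, then plasmacytoid dendritic-like cells at 2.35% and 2.39%, and T-like cells from 1.95% to 2.50% with a median of 2.27%. B-like cells ranged from 1.64% to 2.18% with a median of 1.73%, microglia-like cells from 1.26% to 1.73% with a median of 1.52%, and neutrophil-like cells from 1.22% to 1.36% with a median of 1.33%. The range of T-like cells reached into that of monocyte/macrophage-like cells and held all NK-like and plasmacytoid dendritic-like values. The ranges of T-like and B-like, of B-like and microglia-like, and of microglia-like and neutrophil-like cells also overlapped. These ranges pool days and genotypes, so their overlap alone does not show that a pair is alike. Within libraries, B-like cells lay above microglia-like cells except in KO of day 13 (1.67% against 1.73%). Microglia-like cells lay above neutrophil-like cells except in WT of day 0 (1.26% against 1.33%). T-like cells lay below B-like cells at day 0 (2.05% against 2.18% in WT, 1.95% against 1.97% in KO) and above them in all later libraries. These are shares of all UMIs of a class, so a class with a few very abundant transcripts has less room for all other genes. With mitochondrial, ribosomal, hemoglobin and the 20 most abundant genes left out of the total, neutrophil-like cells (3.18% to 3.74%) lay above microglia-like cells (1.83% to 2.89%). The summed level of 10 neutrophil markers alone was 116916 to 133996 CPM (the UMIs of a gene scaled to one common total for every class and library) in neutrophil-like cells. Plasmacytoid dendritic-like cells had 9063 to 9717 CPM over the 10 monocyte/macrophage markers, beside 9349 to 9701 over their own 10. They also had 2131 to 2178 CPM over the microglia markers and 1420 to 1547 over the B markers. The part of these markers in the share was not tested. Allowing at most 1 marker of another class kept 0 of these cells in WT and 1 in KO of day 13.

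**Figure D1:**
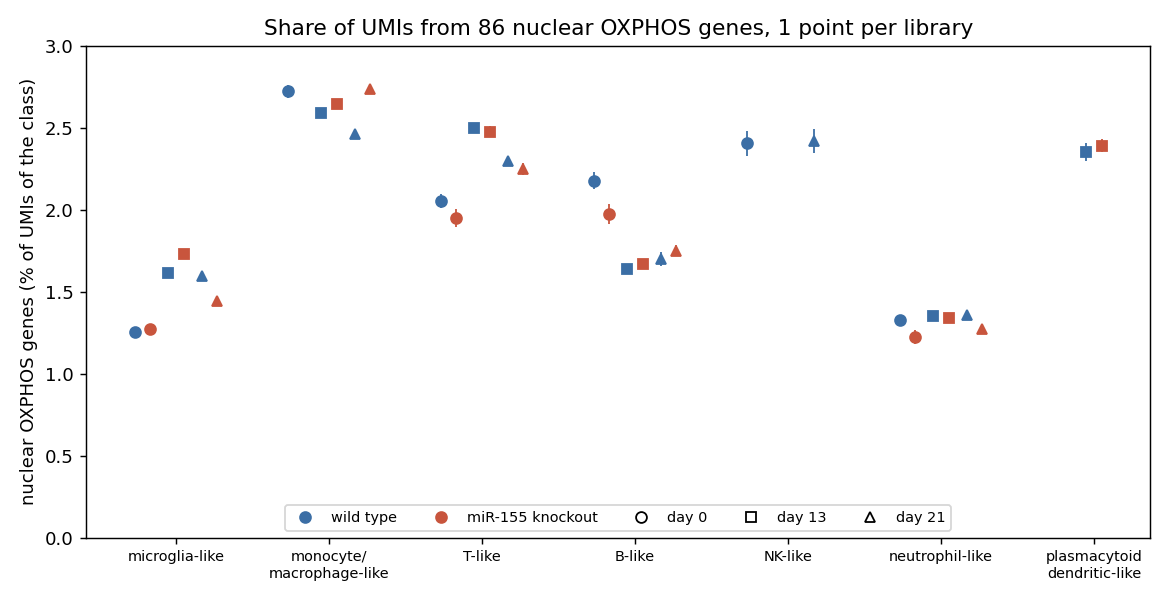
Share of the UMIs of each class (vertical axis, percent) that came from the 86 nuclear OXPHOS genes, with 1 point per library, color for genotype, symbol for day and bars for the 95% interval of the count. Monocyte/macrophage-like cells lie at 2.47% or above in 5 of 5 libraries, and microglia-like cells lie at 1.26% and 1.27% at day 0 and at 1.44% or more at days 13 and 21.

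Most subunits have 1 gene, but several subunits of complex IV have a common form and a second form known from muscle, lung or testis. In these immune cells the common form gave nearly all UMIs. Cox4i1, the ubiquitous form of subunit 4, was the member with the most UMIs in each of the 7 classes, with a mean of 817 CPM (SD 254, n = 6) in microglia-like and 1429 CPM (SD 43.6, n = 5) in monocyte/macrophage-like cells. Its hypoxia-linked counterpart Cox4i2 had means between 0.00 and 1.54 CPM. Cox7a1 and Cox8b, the heart and muscle forms, had 112 and 7 UMIs in all barcodes together, and Ndufa4l2, a relative of the complex IV subunit Ndufa4 induced by hypoxia, had 2. No UMI was found for Cox7b2 or Cox8c. Cox6b2, a form of subunit 6b known from testis, also stayed far below its common form, with 29 UMIs against 417 in monocyte/macrophage-like cells of WT day 0. It had 46.7, 7.49, 11.1, 22.4 and 27.7 CPM in monocyte/macrophage-like cells of WT day 0, WT day 13, KO day 13, WT day 21 and KO day 21. In microglia-like cells it lay between 1.87 and 4.48 CPM, below all 5 of those values. In neutrophil-like cells of day 21 it had 11.8 CPM in WT and 7.39 CPM in KO, which overlaps the monocyte/macrophage-like values of day 13. Its common form Cox6b1 had means from 303 CPM in microglia-like to 667 CPM in monocyte/macrophage-like cells. Of the 3 genes for the c subunit of ATP synthase, Atp5g2 had the most UMIs in microglia-like cells of all 6 libraries, from 252 to 438 CPM, against 167 to 269 for Atp5g1 and 58.1 to 87.8 for Atp5g3. UMIs count molecules at their 3' ends, so these levels between genes are per molecule and not per length.

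Each class was then compared gene by gene with the microglia-like cells of the same libraries. edgeR's quasi-likelihood test with the library as block was used, and p-values were adjusted over all genes (Benjamini-Hochberg, threshold 0.05). All of these comparisons share the microglia-like cells. In monocyte/macrophage-like cells 74 of 80 tested genes were higher and 0 lower, beside 58.9% of all genes that passed the test in either direction. The median log2 difference of the 80 was 0.98, against -0.06 over all genes tested. Cox6b2 differed most (log2 2.90, SE 0.48, adjusted p = 0.000818), followed by Cycs (1.56, SE 0.13), Cox5b (1.53, SE 0.14), the complex I subunit Ndufb6 (1.42, SE 0.11) and Atp5k (1.42, SE 0.11). Cycs had 431, 339, 352, 357 and 319 CPM in the 5 libraries of monocyte/macrophage-like cells, and 107 to 160.0 CPM in the 6 of microglia-like cells, with no overlap. Complex IV was higher in 13 of 13 genes with a median of 1.26, complex III in 9 of 9 (0.97), complex V in 15 of 17 (1.03), complex I in 33 of 36 (0.88) and complex II in 3 of 4 (0.71). Scaling by library size alone left 67 higher and 2 lower.

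T-like cells were higher in 64 and lower in 2 of 78 genes, beside 63.1% of all genes called. The median was 0.56. Atp5h, the d subunit in the stalk of ATP synthase, had 591 to 853 CPM in T-like and 220 to 373 in microglia-like cells (log2 1.26, SE 0.14, adjusted p = 1.55e-05). Atp5g3 (1.25), Atp5e, the epsilon subunit (1.15), Uqcrh (1.10) and Ndufb7 (1.02) came next. Lower were Ndufc2, an accessory subunit of the membrane arm of complex I (-0.53, SE 0.12, adjusted p = 0.00208), and Atp5sl (-0.60), which matches the rule by its name but is not a subunit of ATP synthase. B-like cells were higher in 39 and lower in 3 of 78 genes, beside 55.1%. Atp5e (1.07), Uqcrh (0.99), Atp5sl (0.94), Atp5d (0.89) and Ndufa6 (0.85) led, and Ndufc2 (-0.68), Ndufa9 (-0.34), a subunit of the arm of complex I in the matrix, and Sdhd (-0.35), a membrane anchor of complex II, were lower. NK-like cells, with 2 libraries, were higher in 13 and lower in 1 of 78 genes, beside 27.1%. Ndufb7 led there (1.40, SE 0.33, adjusted p = 0.00138), followed by Atp5e (1.23), Atp5h (1.23), Atp5g3 (1.22) and Ndufa1 (1.14), and the lower gene was Ndufc2 (-1.11). Plasmacytoid dendritic-like cells, also with 2 libraries, were higher in 50 and lower in 2 of 78 genes, beside 46.7%. Ndufa11, an accessory subunit of complex I, led (1.04, SE 0.15), then Ndufb6 (0.81), Ndufb11 (0.78), Ndufs5 (0.71) and Ndufv2 (0.70), and Sdhd (-0.58) and Ndufc2 (-0.47) were lower. The count in B-like cells was 42 in both directions, and 21 with library size scaling and 27 when at most 1 marker of another class was allowed. The counts in NK-like and plasmacytoid dendritic-like cells depend on the test: DESeq2's Wald test called 1 gene in NK-like and 4 genes in plasmacytoid dendritic-like cells, and with a minimum of 20 cells, which admits 6 libraries, 54 were called in NK-like cells.

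Ndufc2 thus passed the test as lower than in microglia-like cells in T-, B-, NK-, neutrophil- and plasmacytoid dendritic-like cells. It had 181 to 237 CPM in microglia-like cells, 114 to 177 in T-like cells, 89.8 to 158 in B-like cells and 42.0 to 72.1 in neutrophil-like cells, and no library of these 3 classes reached the microglia-like range. Complex II stood behind the other complexes in these comparisons: its 4 genes had the lowest median of the complexes in all 6 classes, at -0.02 in T-like, -0.14 in B-like, -0.01 in NK-like, 0.11 in plasmacytoid dendritic-like, 0.22 in neutrophil-like and 0.71 in monocyte/macrophage-like cells. In neutrophil-like cells Sdha, the flavoprotein of complex II, had 32.3 to 46.6 CPM, against 104 to 153 in microglia-like cells (log2 -0.49 with TMM scaling, SE 0.14, adjusted p = 0.00511). Sdhb, its iron-sulfur subunit, had 76.8 to 127 CPM against 143 to 190.0, yet was called higher with TMM scaling (log2 0.50), so its direction depends on the scale, as the next comparison describes.

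**Figure D2:**
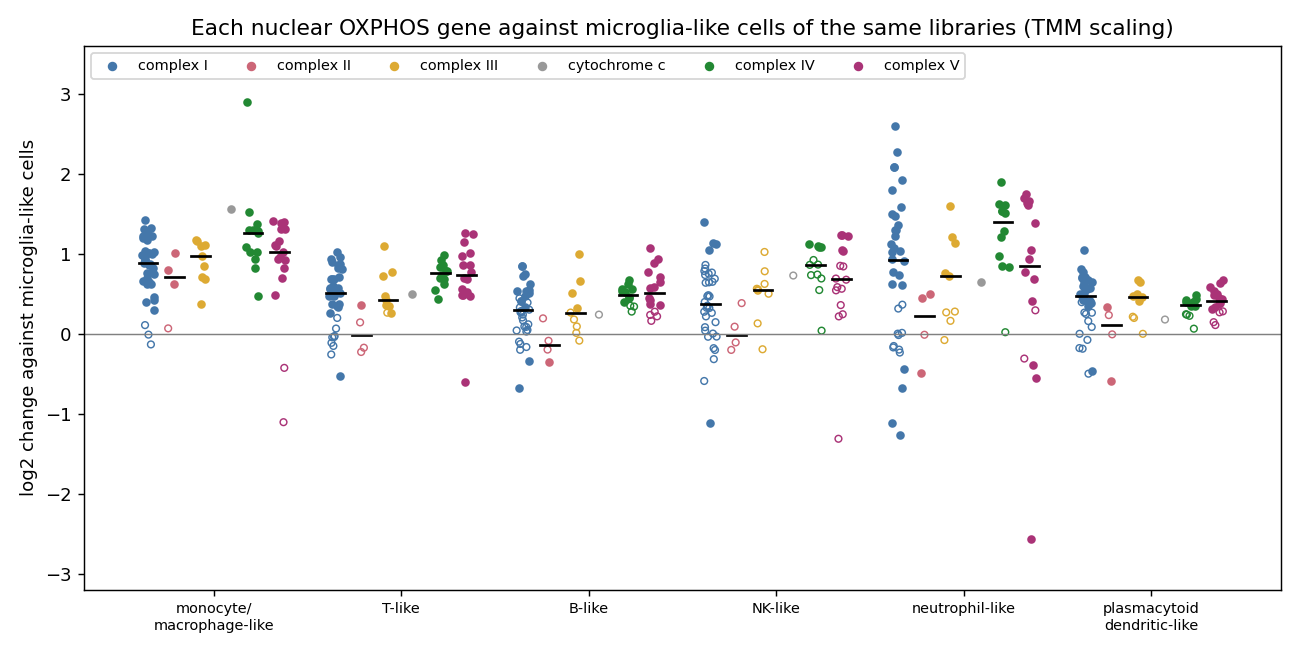
Log2 difference of each tested nuclear OXPHOS gene between a class and the microglia-like cells of the same libraries (vertical axis), by class and, within a class, by complex in color. Filled points passed edgeR's test, open points did not, and bars are medians of a complex. Monocyte/macrophage-like cells have a complex IV median of 1.26, and neutrophil-like cells spread from -2.56 for Atp5sl to 2.59 for Ndufb7.

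Neutrophil-like cells did not shift as a block but split by gene. Ndufb7, an accessory subunit of complex I, had 315, 269.6, 364, 367, 359 and 388 CPM (WT and KO of day 0, of day 13 and of day 21, here and below), against 115, 115, 146, 147, 129 and 135 in microglia-like cells. Ndufa9 had 16.5, 10.5, 27.5, 19.8, 20.4 and 16.7 CPM, against 125, 119, 110, 91.7, 76.9 and 88.1. Ndufs3 had 25.2, 28.0, 24.0, 32.3, 26.2 and 18.2 CPM, against 127, 120, 163, 185, 139 and 101. The groups did not overlap for any of the 3 genes, although all 3 code for complex I. With TMM scaling 53 of 78 genes were higher and 8 lower, beside 72% of all genes called, but scaling by library size alone gave 18 higher and 39 lower, because the TMM factors lay between 0.55 and 0.73 for the neutrophil-like and between 1.40 and 1.70 for the microglia-like sums. The median of all genes was -0.17 with TMM and -1.39 with library size alone, and that of the 78 genes was 0.88 and -0.33, so the members lay above the median of all genes under both.

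Under both scalings 18 genes passed the test as higher and 8 as lower. The share of all genes called with library size alone, or under both scalings, is not given here. These counts therefore do not set the members apart from other genes. The 18 were 7 of complex I, 1 of complex III, 5 of complex IV and 5 of complex V, and the 8 were 4 of complex I, 1 of complex II and 3 of complex V. The 5 of the 18 with the largest difference were Ndufb7 (log2 2.59 with TMM, 1.38 with library size), Ndufa1 (2.27 and 1.05), Ndufa3 (2.09 and 0.87), Ndufs4 (2.08 and 0.87) and Ndufv3 (1.93 and 0.71), all accessory subunits of complex I, with adjusted p between 5.03e-11 and 2.36e-08 with TMM. The 5 of the 8 with the largest difference were Atp5sl (-2.56 and -3.74), Ndufs3 (-1.27 and -2.47), Ndufa9 (-1.12 and -2.34), Ndufc2 (-0.67 and -1.89) and Atp5g2 (-0.56 and -1.77). Atp5g2 had 42.0 to 147 CPM in neutrophil-like against 252 to 438 in microglia-like cells, and Atp5g1 had 48.3 to 91.8 against 167 to 269. Cox4i1 changed direction with the scaling, from 0.83 with TMM to -0.38 with library size, and passed the test under both. Neutrophil-like cells also had 5423 to 17763 CPM summed over the 10 monocyte/macrophage markers, of which 5 to 9 were detected in a library, and 104 to 511 CPM over the 10 microglia markers, and their part in these values was not tested. A gate that allowed at most 1 marker of any other class kept 50 or more neutrophil-like cells only in the 2 libraries of day 21, where 16 genes were higher and 0 lower.

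The rest of the pathway was set beside these genes from lists. In monocyte/macrophage-like cells 13 of 17 glycolysis genes were higher and 2 lower than in microglia-like cells (median log2 1.48), 10 of 17 genes of the citric acid cycle and pyruvate dehydrogenase were higher and 1 lower (0.44), and of 41 assembly factors 11 were higher and 6 lower (0.04). In neutrophil-like cells, with TMM scaling, 13 of 17 glycolysis genes were higher and 3 lower (2.52), 9 of 37 assembly factors were higher and 19 lower (-0.91), and of the 12 tested subunits encoded by mitochondrial DNA 2 were higher and 6 lower (-0.26). In B-like cells all 12 of those mitochondrial subunits were higher (1.06) and glycolysis genes split into 3 higher and 6 lower of 17. In plasmacytoid dendritic-like cells 2 glycolysis genes were higher and 11 lower of 17 (-1.02). In T-like cells 9 were higher and 4 lower of 17 (0.47). Each median here stands beside -0.17 to -0.01 over all genes in the same fits.

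In microglia-like cells the summed level of the genes was higher at days 13 and 21 than at day 0. Their share of UMIs was 1.26% in WT and 1.27% in KO at day 0, 1.61% and 1.73% at day 13 and 1.59% and 1.44% at day 21. All 4 libraries of days 13 and 21 lay above both of day 0. edgeR's fit with day and genotype, in which the 2 genotypes serve as the replicates of a day, called 42 of 80 genes higher and 1 lower at day 13 than at day 0, beside 26.1% of all genes, with a median of 0.48 against -0.03 over all genes. At day 21 against day 0 it called 26 higher and 0 lower, beside 12.2%, with a median of 0.26. These 2 comparisons share the day 0 libraries. Between days 21 and 13 it called 0, beside 0.0381%, while 6 members had an unadjusted p under 0.05 and DESeq2 also called 0. Both libraries of a day carry a number prefix of their own in their titles, so day and any batch behind that prefix cannot be told apart.

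The rise was uneven over the complexes. At day 13 complex IV had 10 of 13 genes higher (median 0.86) and complex V 12 of 17 higher and 1 lower (0.58). Complex I had 14 of 36 higher (0.40), complex III 4 of 9 (0.21) and complex II 1 of 4 (0.05). Summed over its genes, complex IV went from 3072 and 3104 CPM in WT and KO at day 0 to 4765 and 5118 at day 13 and 4951 and 4255 at day 21, and complex II from 454 and 460 to 439 and 422 and then to 398 and 386. As a share of the members' own UMIs, complex IV moved from 24.5% and 24.4% to between 29.5% and 31.1% in the 4 later libraries, and complex I from 33.4% and 33.4% to between 28.1% and 29.7%. These shares depend on no scaling between libraries.

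**Figure D3:**
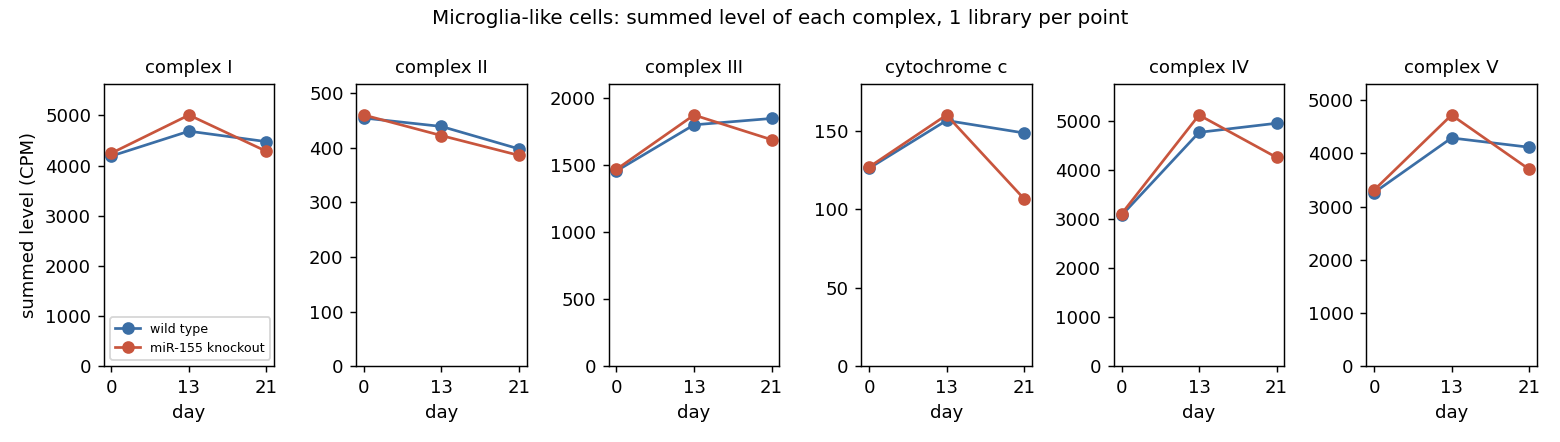
Summed level of each complex in microglia-like cells (vertical axis, CPM, from 0, with its own range in each panel) against day, with 1 library per point and color for genotype. Complex IV lies at 3072 and 3104 CPM at day 0 and at 4255 or more later, while complex II lies at 454 and 460 CPM at day 0 and at 398 and 386 CPM at day 21.

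Cox4i1 had 506 and 494 CPM in WT and KO at day 0, 986 and 998 at day 13 and 1057 and 858 at day 21. Uqcrh, whose promoter with the ETS motif is printed above, had 264 and 240.0 CPM, then 518 and 476, then 676 and 519. Cox8a, a small subunit of complex IV, had 358 and 360.0 CPM, then 688 and 726, then 687 and 563. For all 3 genes both day 0 values lay below the other 4. At day 13 the largest log2 rises were those of Cox5a (1.24, SE 0.22, adjusted p = 0.00417), a subunit of complex IV, Cox4i1 (1.22, SE 0.17, adjusted p = 0.000971), Uqcrh (1.21, SE 0.16, adjusted p = 0.000806), Cox8a (1.20, SE 0.17) and Cox7a2l (1.06, SE 0.16). At day 21 they were those of Uqcrh (1.49, SE 0.16, adjusted p = 0.000672), Cox7a2l (1.32), Cox4i1 (1.19), Cox8a (1.05) and Atp5g2 (0.93). Atp5g2 had 258 and 252 CPM, then 398 and 422, then 438 and 377.

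Other members showed little or an opposite difference. Ndufs1, the largest subunit of complex I, had 44.2 and 39.6 CPM at day 0, 27.0 and 28.0 at day 13 and 26.3 and 28.6 at day 21 (log2 -0.39, adjusted p = 0.113 at day 13). Sdha had 153 and 149 CPM, then 111 and 109.9, then 104 and 108 (log2 -0.23, adjusted p = 0.245). Neither passed the test with TMM, and with library size scaling, which puts the median of all genes at -0.25, both did (Ndufs1 -0.61, adjusted p = 0.0216, and Sdha -0.45, adjusted p = 0.0298). Atp5s, named like an ATP synthase subunit but known as a coupling factor, was the gene called lower (-1.23, SE 0.40, adjusted p = 0.048). It rests on few UMIs, 39 and 40 in WT and KO at day 0 and 9 and 5 at day 13. Cyc1, the heme subunit of complex III, and Uqcrc1, a core protein of the same complex, had log2 differences of 0.15 and 0.08, and Ndufv1, the NADH-binding subunit of complex I, 0.36 (adjusted p = 0.104), and did not pass the test. Uqcrfs1, the Rieske protein of complex III (0.85), Cox6a1 (0.81), Cox7a2 (0.77), Cox6c (0.69), Cycs (0.55) and Atp5b, the catalytic beta subunit of ATP synthase (0.54), rose at day 13.

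**Figure D4:**
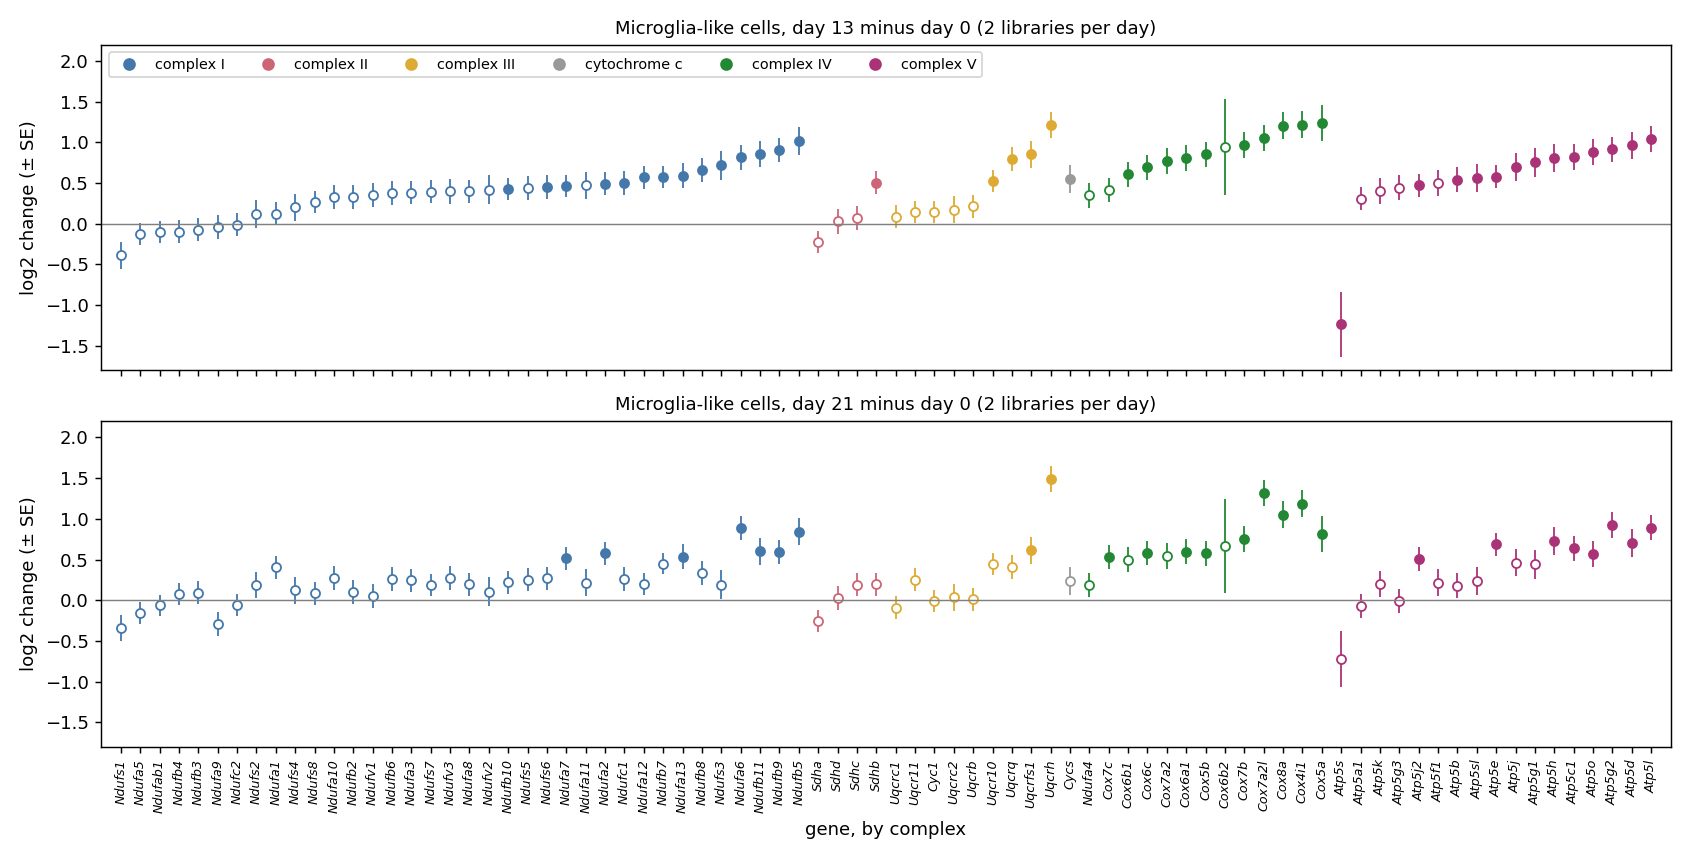
Log2 change of each tested nuclear OXPHOS gene in microglia-like cells against day 0 (vertical axis, with its standard error), at day 13 above and day 21 below, ordered by complex and color. Filled points passed edgeR's test, 43 at day 13 and 26 at day 21, and the points for complex IV lie mostly above those for complexes I and II.

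Other quantities moved with this rise. The share of UMIs from ribosomal protein genes in microglia-like cells went from 8.40% and 8.21% at day 0 to between 16.3% and 19.3% later, with 76 of 103 of these genes called higher and 4 lower at day 13. The share of the 13 subunits encoded by mitochondrial DNA went from 0.80% and 0.84% to between 1.89% and 2.40%, with 10 of 13 called higher and 0 lower (median log2 1.43). The 10 microglia markers had 36089 and 37488 CPM at day 0 and between 13596 and 24672 later, the 10 monocyte/macrophage markers had 124 and 98.8 CPM and then between 254 and 624, and at least 9 of those 10 were detected in each library. Over the 6 libraries T markers ranged from 18.4 to 444 CPM and neutrophil markers from 151 to 1006, with the highest value of both in WT at day 21. Conventional dendritic markers had 698 and 663 CPM at day 0 and between 86.6 and 319 later, and cell-cycle genes 22.6 and 19.8 CPM and then between 68.9 and 212. Their part in the result was not tested. When cells with more than 1 marker of any other class were left out, the members' shares were 1.24% and 1.24%, then 1.47% and 1.59%, then 1.46% and 1.35%, and 25 and 16 genes were called at days 13 and 21. Of the citric acid cycle and pyruvate dehydrogenase genes 1 was called higher and 2 lower of 17 at day 13 (median 0.08), of glycolysis genes 5 higher and 0 lower of 17 (0.16), and of assembly factors 4 higher and 3 lower of 41 (0.09). The counts rest on the day 0 libraries: without the WT library of day 0 the members called fell to 4 and 2 at days 13 and 21, without the KO library of day 0 to 14 and 5, each with the lone day 0 library assumed to vary like the others. With library size scaling 24 genes were higher and 3 lower at day 13, and 9 higher and 3 lower at day 21. For these alternative gates and scalings the share of all genes called is not given here.

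In the other classes few single members passed the test for day, although the summed share moved in T-like and B-like cells too. In T-like cells it was 2.05% and 1.95% in WT and KO at day 0, 2.50% and 2.48% at day 13 and 2.30% and 2.25% at day 21, with all 4 later values above both of day 0. In B-like cells it was 2.18% and 1.97%, then 1.64% and 1.67%, then 1.70% and 1.75%, with all 4 later values below both of day 0. The share of ribosomal protein genes, part of the same total, moved the opposite way in both classes. In T-like cells it was 38.8% and 40.0% at day 0 and between 27.9% and 33.7% later. In B-like cells it was 24.6% and 24.6% at day 0 and between 35.1% and 38.0% later. Its part in the members' shares was not tested. T-like cells had 3 genes higher and 2 lower at day 13 than at day 0 (12.3% of all genes called), 2 higher at day 21 than at day 0 (5.96%) and 0 called between days 21 and 13 (2.34%, with 8 members at an unadjusted p under 0.05 and 0 called by DESeq2). Cox5a led at both days (1.11, SE 0.16, adjusted p = 8.9e-05, and 0.72), with Ndufb7 next (0.81 and 0.61), and Ndufa5 (-0.70) and Ndufa6 (-0.56) were lower at day 13. B-like cells had 6 higher and 1 lower at day 13 (14.5%), 2 higher and 2 lower at day 21 (8.12%) and 1 higher at day 21 than at day 13 (0.479%). Uqcrh (0.80 and 0.74) and Cox7a2l (0.71 and 0.83) were higher at both days, Ndufa1 was lower at day 13 (-1.21, SE 0.25, adjusted p = 0.00193), and Cyc1 (-0.90) and Sdhb (-0.83) were lower at day 21. The B-like cells of day 0 differed in kind: precursor B cell genes summed to 303 and 184 CPM there, against 18.8 or less later, and their part was not tested. Library size scaling gave 29 genes lower and 0 higher in B-like cells at day 13, with the median of all genes at -0.41, and 21 higher and 0 lower in T-like cells, with that median at 0.20. The share of all genes called under this scaling is not given here.

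Neutrophil-like cells had 1 gene higher and 5 lower at day 13 than at day 0 (11% of all genes called), and 0 at day 21 against day 0 (1.73%) and 0 at day 21 against day 13 (1.52%), where 5 and 9 members had an unadjusted p under 0.05 and DESeq2 called 0. The lower genes were Ndufa1 (-1.15, SE 0.18, adjusted p = 0.00326), Ndufa3 (-0.96), Atp5e (-0.93), Ndufa13 (-0.76) and Ndufa7 (-0.71), and Atp5d, the delta subunit of ATP synthase, was higher (0.75). Ndufa1 had 182 and 259 CPM at day 0, 95.1 and 125 at day 13 and 132 and 201 at day 21, with both day 13 values lowest. In monocyte/macrophage-like cells, compared between days 13 and 21 over 4 libraries, Cox6b2 was higher at day 21 (log2 1.40, SE 0.25, adjusted p = 0.0179), the 1 member called beside 4.4% of all genes.

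Whether loss of miR-155 moved these genes was asked within each day and over the days. Within a day there is 1 library of each genotype, so a ratio has a counting interval and no test. The summed ratio of KO to WT in microglia-like cells was 1.01 at day 0 (95% interval 1.0007 to 1.0242, counting error only), 1.07 at day 13 (1.06 to 1.09) and 0.91 at day 21 (0.89 to 0.92). In monocyte/macrophage-like cells it was 1.02 at day 13 and 1.11 at day 21 (1.10 to 1.12). In T-like cells it was 0.95, 0.99 and 0.98 at days 0, 13 and 21, in B-like cells 0.91, 1.02 and 1.03, in neutrophil-like cells 0.92, 0.99 and 0.94 (at day 21 1.02 without mitochondrial, ribosomal, hemoglobin and the most abundant genes in the total), and in plasmacytoid dendritic-like cells of day 13 1.02. With day as a block and the days as replicates, edgeR called 0 members in each of the 5 classes tested, and DESeq2 also 0. The edgeR background was 0.0476% of all genes in microglia-like cells, 0% in monocyte/macrophage-like cells, 0.539% in T-like cells, 0% in B-like cells and 0% in neutrophil-like cells. At an unadjusted p under 0.05 there were 2, 4, 7, 1 and 6 members in these classes. Leaving out 1 library raised the calls over all classes to 6 without the WT library of day 13 and 5 without the KO library of day 13.

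**Figure D5:**
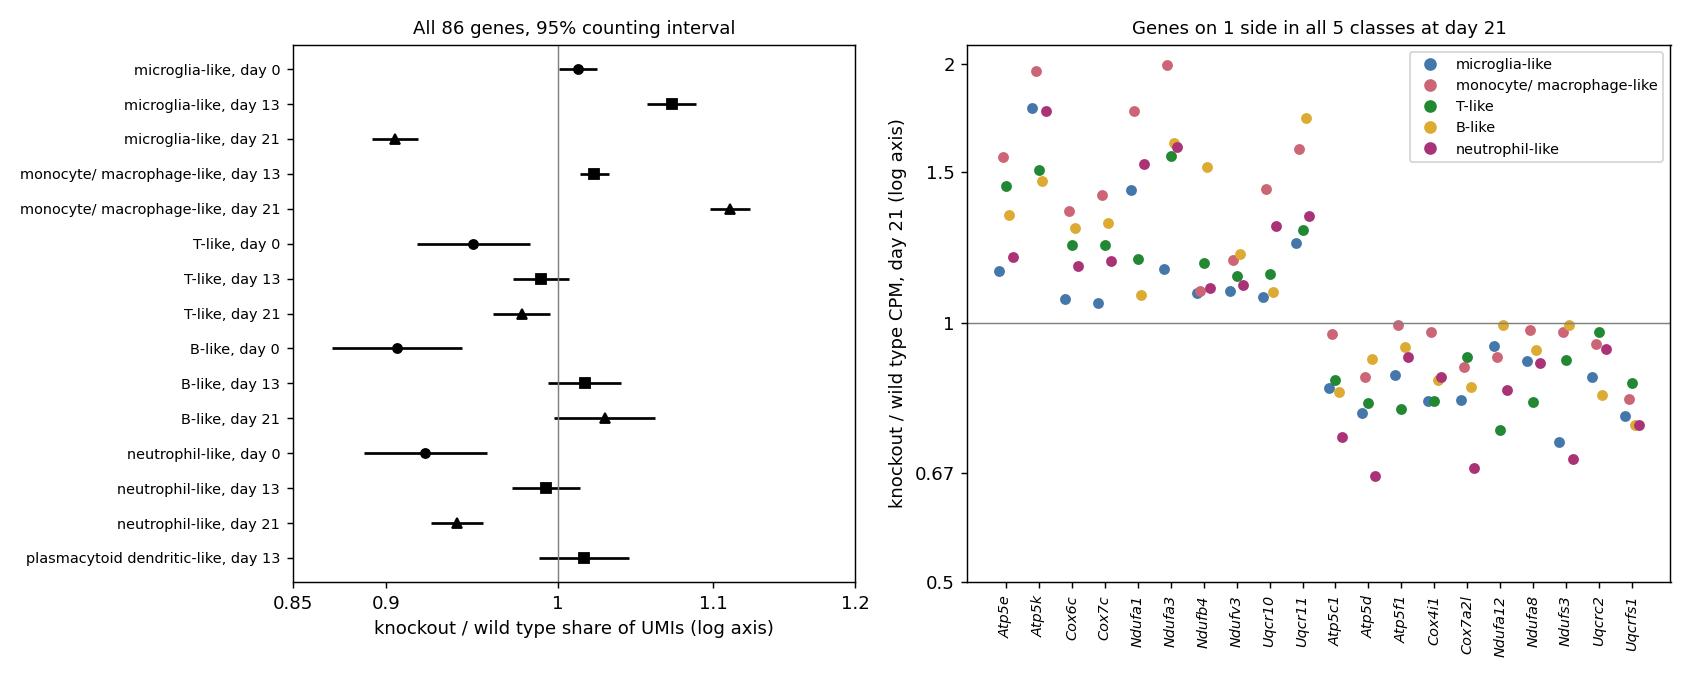
Left, ratio of the KO to the WT share of UMIs from the 86 genes (horizontal log axis) per class and day with 95% counting intervals, which in microglia-like cells is 1.07 at day 13 and 0.91 at day 21. Right, KO to WT ratio of CPM at day 21 (vertical log axis) for the 10 members above 1 and the 10 below 1 in all 5 classes, with 1 point per class and Atp5k between 1.46 and 1.96.

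Counts of members at least 1.5-fold apart, among those that reached 10 CPM in at least 1 of the paired libraries, lay below the share of all genes in all 15 pairs of class and day. That share takes in all genes down to the same 10 CPM, and it was not matched to the members by level. Weakly detected genes carry more counting error, so these counts do not show whether members were steadier than genes of like level. In microglia-like cells 0, 0 and 2 of 78 were that far apart at days 0, 13 and 21, beside 2.44%, 8.7% and 15.5% of all genes. Monocyte/macrophage-like cells had 0 and 5 of 79 at days 13 and 21, beside 4.57% and 16.6%. T-like cells had 5, 2 and 3 of 78, beside 40.3%, 18.1% and 19.3%. B-like cells had 12 of 79 and then 0 and 7 of 78, beside 47.2%, 19.3% and 35.7%. Neutrophil-like cells had 11 of 77 and then 4 and 8 of 78, beside 41.2%, 17.9% and 20%, and plasmacytoid dendritic-like cells of day 13 had 3 of 78, beside 30.8%. At day 0 the KO library held 75 T-like, 84 B-like and 72 neutrophil-like cells, and many of these members rest on few UMIs: Ndufs1 in T-like cells had 13 UMIs in KO and 11 in WT, for a ratio of 1.92 with an interval of 0.80 to 4.74. In B-like cells of day 0 the level of cell-cycle genes was 765 CPM in WT against 10.2 CPM in KO, and their part was not tested.

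In microglia-like cells of day 21 Cox5a was lower in KO (175 against 273 CPM, ratio 0.64, interval 0.57 to 0.72) and Atp5k higher (135 against 76.2 CPM, ratio 1.78, interval 1.46 to 2.17). By complex the ratios were 0.96 for I, 0.97 for II, 0.91 for III, 0.72 for cytochrome c, 0.86 for IV and 0.90 for V. The ratio was 0.86 for ribosomal protein genes and 0.85 for the subunits encoded by mitochondrial DNA in the same cells, microglia markers had 24672 CPM in total in KO against 16067 in WT, and neutrophil and T markers to 490.5 and 55.8 in KO against 1006 and 444 in WT. Their part in the ratio was not tested, and it was 0.93 with the gate that allows at most 1 marker of another class. All 5 members apart in monocyte/macrophage-like cells of day 21 were higher in KO: Ndufa3 (399 against 200.4 CPM, ratio 1.99, interval 1.78 to 2.23), Atp5k (1.96), Ndufa1 (1.76), Uqcr11 (1.59), the smallest subunit of complex III, and Atp5e (1.56). In neutrophil-like cells of day 21 Atp5k (1.76), Ndufa3 (1.60) and Ndufa1 (1.53) were higher, and Atp5g2 (0.57), Cox6b2 (0.62), Cyc1 (0.63), Atp5g1 (0.66) and Atp5d (0.66) were lower.

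The direction of each member at day 21 was set side by side over the 5 classes, which share their library and are no replicates of it. Of 77 members measured in all 5 classes at day 21, 10 were above 1 in all 5 (Atp5e, Atp5k, Cox6c, Cox7c, Ndufa1, Ndufa3, Ndufb4, Ndufv3, Uqcr10 and Uqcr11) and 10 were below 1 in all 5 (Atp5c1, Atp5d, Atp5f1, Cox4i1, Cox7a2l, Ndufa12, Ndufa8, Ndufs3, Uqcrc2 and Uqcrfs1). Of all 4056 genes measured so, 6.34% were above 1 and 9.64% below 1 in all 5. These members were singled out after their values were seen. Atp5k had ratios of 1.78, 1.96, 1.51, 1.46 and 1.76 in microglia-, monocyte/macrophage-, T-, B- and neutrophil-like cells, and Ndufa3 had 1.16, 1.99, 1.56, 1.62 and 1.60. At day 13 the ratios of Atp5k lay between 0.99 and 1.21 and at day 0 between 0.92 and 1.35. Ndufa3 was above 1 in all 15 pairs of class and day, from 1.03 to 1.99, and no other of the 77 members was on 1 side in all 15. Of 3352 genes measured in all 15 pairs, 0.209% were above 1 and 0.0895% below 1 in all of them. Over the days Ndufa3 had log2 differences of 0.25, 0.60, 0.48, 0.52 and 0.52 in microglia-, monocyte/macrophage-, T-, B- and neutrophil-like cells, none past the adjusted threshold.

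Members differ in mRNA length, and so did their values by length. The median mRNA length of the 86 genes was 739 bases, from 315 to 3171 (GENCODE vM21, 1 coding transcript per gene), against 2278 over 21502 coding genes. Atp5k measures 371 bases, Ndufa1 419, Atp5e 421, Uqcr11 445 and Ndufa3 515, but Cycs measures 3123, Ndufs4 1698, Ndufv3 1582, Atp5sl 1465 and Ndufa9 1445. In monocyte/macrophage-like cells of day 21 the 38 members at or below the median length differed between KO and WT by a median log2 of 0.22, with 34 above 0, and the 41 longer ones by 0.03, with 23 above 0. In neutrophil-like against microglia-like cells the 37 shorter members had a median log2 difference of 1.22 and the 41 longer ones 0.32 (TMM scaling), with a Spearman correlation of -0.50 between length and difference over the 78 members and -0.08 over all 8462 genes with a length. All 358 genes as short as the shorter members had a median of 0.58 in the same comparison. In microglia-like cells at day 21 against day 0 the medians were 0.45 and 0.19, and the correlation was -0.43 over 80 members and -0.07 over 10106 genes, while all 398 genes as short as the shorter members had a median of 0.35. The order was opposite in neutrophil-like cells at day 13 against day 0, where 11 of 38 shorter and 25 of 40 longer members were above 0 (correlation 0.43), and in T-like cells the correlation was 0.23. In the other class comparisons, the shorter members and all genes as short had medians of 1.14 and 0.71 in monocyte/macrophage-like cells. These were 0.69 and 0.59 in T-like, 0.45 and 0.55 in B-like, 0.75 and 0.55 in NK-like, and 0.44 and 0.39 in plasmacytoid dendritic-like cells. In B-like cells the shorter members thus lay below all genes as short. All these values are descriptions over genes of the same libraries, which are not independent replicates.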

How the data were processed

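Libraries of sorted CD45+ cells were counted by the authors with Cell Ranger 2.0.2 on mm10, per the submitters' processing notes, and the values used are the UMI counts per gene and barcode as deposited. Barcodes with fewer than 200 genes or over 10% mitochondrial UMIs were left out (0 and 23). No doublet caller was run. The marker gate leaves out barcodes with too many markers of another class, but kept cells can still carry some. In WT of day 13 the median for the highest other class was 2 markers in microglia-like and 3 in neutrophil-like cells. Allowing at most 1 such marker kept 390 of 920 and 4 of 349 of these cells. In WT of day 0 it kept 883 of 1385 microglia-like cells. The part of doublets in the results was not tested. Counts were summed per library and class, where a class held 50 or more cells. Sums were tested with edgeR 4.0.16 (quasi-likelihood, TMM, filterByExpr) in R 4.3.3, with p-values adjusted over all genes tested, and DESeq2 1.42.0 as an alternative. The scripts were tested on simulated data. Each genotype and day has 1 library, so libraries of unlike day or genotype serve as replicates, also in the comparisons between classes. p-values measure the spread left over these libraries after the library block, or after day and genotype. Intervals are exact at 95% and cover counting error only. Members and lists were chosen with earlier results of these data known. Named genes are the 5 with the largest changes in each direction among those past the test, or 1.5-fold apart (CPM plus 1) with 1 library a side, plus isoform groups and examples per complex. Alternatives changed the gate, the mitochondrial limit, the scaling, the filter, the minimum of cells and the test, and left out each library. Shares of all genes called are given for the main fits only. Counts under an alternative therefore compare with the main count of members and not with other genes.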

Additional observations from a re-analysis of the deposited data

Results flagged for a closer look

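In microglia-like cells the KO library had a summed level of nuclear OXPHOS genes 1.01 times that of WT at day 0, 1.07 times at day 13 and 0.905 times at day 21. The direction at day 21 was opposite to that at days 0 and 13. With 1 library of each genotype on a day, the difference between days was not tested.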

How the results depend on the processing

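Allowing at most 1 marker of another class gave 27 called members in B-like against microglia-like cells, 16 in neutrophil-like cells, 25 and 16 in microglia-like cells at days 13 and 21 against day 0, 0 summed over the other classes at day 21 against day 13, and 2 members 1.5-fold apart in microglia-like cells at day 13. That gate kept neutrophil-like cells in the 2 day 21 libraries alone, moved the mean log2 ratio of their share to microglia-like cells from -0.17 to 0.11, and their complex shares minus those of microglia-like cells to -2.08 (I), -0.71 (II), 0.43 (cytochrome c) and 1.67 (V) percentage points. As a mean over cells, the shares in that gate were 1.24% and 1.09% in neutrophil-like cells of WT and KO day 21. Those of microglia-like cells were 1.44% and 1.31%, so by this measure neutrophil-like cells lay below. Library size scaling gave 21 in B-like, 27 in NK-like, 27 and 12 in microglia-like cells at days 13 and 21, and 62 and 15 over the other classes. DESeq2 gave 1 in NK-like, 4 in plasmacytoid dendritic-like, 14 in microglia-like cells at day 21, and 6, 2 and 0 over the other classes at day 13, at day 21 and between them. NK-like cells had 2 without the library block and 54 with a minimum of 20 cells, and no filter gave 5 over the other classes between days 21 and 13. Without mitochondrial, ribosomal, hemoglobin and the most abundant genes in the denominator, the log2 ratio to microglia-like cells was 0.80 in T-like and 0.54 in neutrophil-like cells, and the KO to WT ratio in neutrophil-like cells at day 21 was 1.02. For plasmacytoid dendritic-like cells the log2 ratio was 0.56 without the top 5% of cells and 0.57 as a mean over cells. Leaving out 1 library gave 4 to 57, 2 to 35 and 0 to 10 in microglia-like cells at day 13, at day 21 and between them, 1 to 30, 0 to 8 and 0 to 4 over the other classes, and 0 to 6 for genotype. The cause of these shifts was not tested. KO and WT were already paired by day in the genotype fit.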
